A study of Homo sapiens with 6 samples.

Results

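The growth cone and neurite outgrowth genes described here were 10 protein-coding genes in 3 groups. They were GAP43, BASP1 and MARCKS, the stathmins STMN1, STMN2, STMN3 and STMN4, and the collapsin response mediator proteins (CRMPs) CRMP1, DPYSL2 and DPYSL3. They were found among the 60676 genes of the deposited counts table by matching Ensembl identifiers to these symbols in GENCODE v44. All 10 were found, and all 10 were among the 12565 genes that had at least 10 counts in total over the 6 libraries and were therefore tested.

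The libraries came from SK-N-BE cells, an established human neuroblastoma line, at day 1.5 of neuronal differentiation in 10 µM retinoic acid. In a native RNA pull-down, biotinylated antisense DNA probes were hybridized to a total cell extract and collected on streptavidin beads, so that the probed RNA came down with whatever remained attached to it. Of the 6 libraries, 2 held RNA of the extract itself (input), 2 held RNA recovered with probes against the long non-coding RNA CyCoNP (CyCoNP PD), and 2 held RNA recovered with probes against the bacterial LacZ gene (LacZ PD), which has no target in human cells. The cells of all groups were of the same line, time and treatment and carried no knockdown or overexpression, and each library was prepared as PCR-amplified cDNA and read on a Nanopore flow cell.

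A growth cone is the motile tip of an extending neurite, where an actin-rich front and the microtubules behind it are remodelled as the tip advances, turns or collapses. GAP43, BASP1 and MARCKS are proteins of the inner face of the plasma membrane that are phosphorylated by protein kinase C, bind calmodulin and act on phosphoinositides and the actin cortex. Stathmins bind free tubulin dimers and lower microtubule stability until they are phosphorylated, whereas CRMPs bind tubulin and pass signals from semaphorins, which repel growth cones. Several of these genes, GAP43 and STMN2 above all, are widely used as markers of differentiating neurons and of neuroblastoma cells treated with retinoic acid.

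The input libraries held 717905 and 791970 counts and the CyCoNP PD libraries 1512148 and 514882, while the LacZ PD libraries held 18870 and 140115. A gene had to reach 159 CPM (its counts scaled to a common library total) in LacZ PD 1, and 21.4 CPM in LacZ PD 2, to give 3 counts. The pull-down was checked on its target: CyCoNP (LINC02381) had 11687 and 3507 counts in CyCoNP PD against 20 and 39 in the input, while LacZ PD held 1 and 20. It was thus enriched in both CyCoNP PD libraries, with a log2 fold change of 7.59 ± 0.96 (SE) against input and an edgeR adjusted p of 0.0137. Against LacZ PD the log2 fold change was 6.39 ± 0.93, with an edgeR adjusted p of 0.0785, and it passed with the replicate block (6.51, edgeR adjusted p = 1.65e-09) and with DESeq2 (6.17, adjusted p = 5.49e-15). By CPM, CyCoNP was also higher in LacZ PD (53.0 and 143) than in the input (27.9 and 49.2), 2.90-fold within replicate 2 (95% interval 1.60 to 5.09) and 1.90-fold within replicate 1 (0.0459 to 11.9), but the log2 fold change of 1.20 ± 0.82 did not pass (edgeR adjusted p = 0.768). Markers of the labelled cell type were present in every library, as 9 sympathoadrenal neuroblastoma markers (PHOX2A, HAND2, GATA3, ISL1, MYCN, DBH, TH, CHGA and CHGB) summed to 3084 and 3316 CPM in the input, 1872 and 3115 CPM in CyCoNP PD, and 2597 and 1784 CPM in LacZ PD.

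The replicates differed in one more respect. All 3 libraries with the number 1 held transcripts of skeletal muscle, which were almost missing from the 3 libraries with the number 2. MYOG, the transcription factor of differentiating muscle cells, had 666, 1284 and 22 counts in input 1, CyCoNP PD 1 and LacZ PD 1, and 1, 0 and 0 counts in their number 2 counterparts. Over a list of 26 skeletal muscle markers chosen after the data were seen, of which 25 were in the table, the summed level was 2126, 3695 and 4452 CPM in the number 1 libraries and 21.5, 46.6 and 50.0 CPM in the number 2 libraries. Of the 25 markers, 22, 24 and 18 were detected in the number 1 libraries and 6, 6 and 4 in the number 2 libraries, and MYF6 was at 0 in all 6. A list of 7 mesenchymal and Schwann cell markers moved with them, at 334, 229 and 424 CPM against 17.7, 19.4 and 14.3 CPM, although SOX10, which defines Schwann cells, was at 0 throughout. In CyCoNP PD 1 and LacZ PD 1 the muscle sum exceeded that of the neuroblastoma markers. The labels name the same cell line for all 6 libraries, and the source of the muscle transcripts was not tested. The ratios of the members to input are therefore also given within the number 1 and within the number 2 libraries. The part of the muscle transcripts in any result was not tested.

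**Figure D1:**
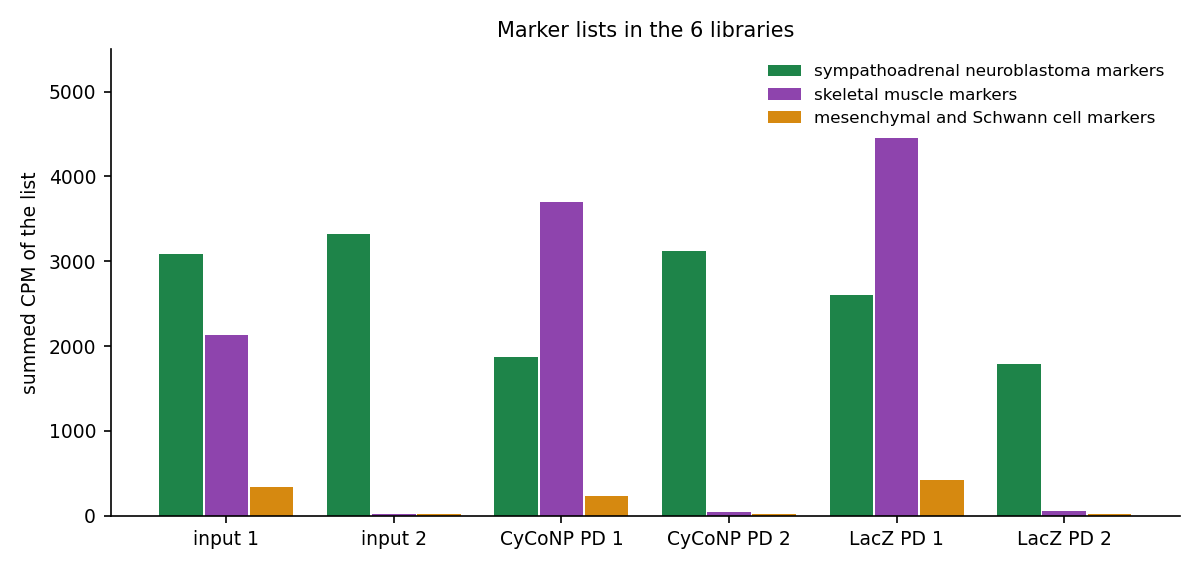
Summed CPM of 3 marker lists in each library (bars, linear axis from 0). Neuroblastoma markers are present in all 6 libraries at 1784 to 3316 CPM, whereas skeletal muscle markers reach 2126 to 4452 CPM in the 3 number 1 libraries and at most 50.0 CPM in the 3 number 2 libraries.

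Because the pull-down relies on base pairing, the 22 CyCoNP probes were compared with the transcripts of each gene, and the stretches that could pair are shown here. All 20 bases of a probe could pair with CyCoNP. The longest exactly complementary stretch in a member was 12 bases, in BASP1, then 11 in MARCKS, STMN3 and DPYSL3, 10 in GAP43, STMN1 and STMN4, and 9 in STMN2, CRMP1 and DPYSL2. Among 12527 tested genes with a GENCODE transcript, 6.17% held a stretch of at least 12 bases, 21.9% one of at least 11 and 56.4% one of at least 10, so stretches of these lengths were common. The probes are printed 5′ to 3′, in capitals where they are complementary to the named messenger RNA:
BASP1, probe 14: TCAGCAGCTTTGaggctgat
STMN3, probe 14: tCAGCAGCTTTGaggctgat
GAP43, probe 14: TCAGCAGCTTtgaggctgat
MARCKS, probe 12: cccaacatgGGGGAGAAAAA
DPYSL3, probe 15: tgGAAGGTGCAGTtcatgac
STMN1, probe 8: ctcaccaaggTCTGGAACAA

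Probe 14, which targets an exon of LINC02381 at chr12:54132356-54132375 (GRCh38, plus strand), gave the longest stretch in both BASP1 and STMN3 and 1 of the 2 stretches of 10 bases in GAP43. The BASP1 stretch lay in the coding sequence, at chr5:17275576-17275587 on the plus strand, and the GAP43 stretch in the coding sequence at chr3:115676161-115676170 on the plus strand. Those of STMN3 (chr20:63640148-63640158, minus strand), MARCKS (chr6:113860746-113860756, plus strand) and STMN1 (chr1:25900493-25900502, minus strand) lay in the 3′ UTR, and that of DPYSL3 (chr5:147400794-147400804, minus strand) in the coding sequence. Of the 4 genes with stretches of 11 or 12 bases, BASP1, MARCKS and STMN3 were lower in both CyCoNP PD libraries than in both input libraries, and DPYSL3 overlapped the input, as described below. Of the members with shorter stretches, DPYSL2 and CRMP1 (9 bases each) were lower in this way, and GAP43, STMN1, STMN2 and STMN4 were not. This held for 20.3% of all genes tested. The part of probe pairing in these values was not tested.

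Together the 10 genes took 0.374% and 0.233% of all counts in the input. In CyCoNP PD they took 0.207% and 0.151%, and in LacZ PD 0.175% and 0.192%. By these values their share was higher in both input libraries than in any pull-down library, but for input 2 this depended on counting error and scaling. The counting interval of LacZ PD 1, from 33 counts, was 0.125% to 0.245% and included the share of input 2. Without mitochondrial counts, the intervals of input 2 (0.244%, 0.233% to 0.255%) and CyCoNP PD 1 (0.232%, 0.224% to 0.24%) overlapped. Input 1 stood apart, with 2682 counts of the 10 genes against 1842 in the slightly deeper input 2. In bulk libraries such as these, fewer cells that express a gene and less of its RNA per cell cannot be told apart.

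In the input, 9 of the 10 genes were abundant. By mean CPM they ranged from 74.5 ± 8.91 (SD, n = 2) for CRMP1 to 593 ± 58.2 for STMN2, which placed them between rank 267 and rank 1899 of the 12565 genes tested. STMN4 was the exception, with 10 and 1 counts, or 13.9 and 1.26 CPM, at rank 8835. Divided by transcript length, the order of mean input CPM per kilobase was GAP43 (373), STMN2 (311), STMN3 (225), STMN1 (158), BASP1 (121), MARCKS (73.9), DPYSL3 (61.4), DPYSL2 (39.3), CRMP1 (23.5) and STMN4 (3.27). In this order the ranges of the 2 input libraries overlapped between GAP43 and STMN2, STMN1 and BASP1, BASP1 and MARCKS, and MARCKS and DPYSL3, and these neighbours therefore did not differ beyond their spread. The other neighbours did not overlap. Genes farther apart in the order did so too: GAP43, at 653 and 93.6 CPM per kilobase, overlapped STMN3, STMN1, BASP1 and MARCKS. BASP1 overlapped DPYSL3 and DPYSL2, and MARCKS overlapped DPYSL2. In input 2 alone, GAP43 was below STMN2, STMN3 and STMN1. Of the stathmins, STMN1, STMN2 and STMN3 each exceeded all 3 CRMPs per kilobase in both input libraries. The order depended on this division. By mean CPM, STMN2 (593) was above GAP43 (559), and STMN1 (234 and 222 CPM) was below DPYSL3 (351 and 323 CPM) in both input libraries. Whether the counts of these Nanopore libraries rise with transcript length was not tested.

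**Figure D2:**
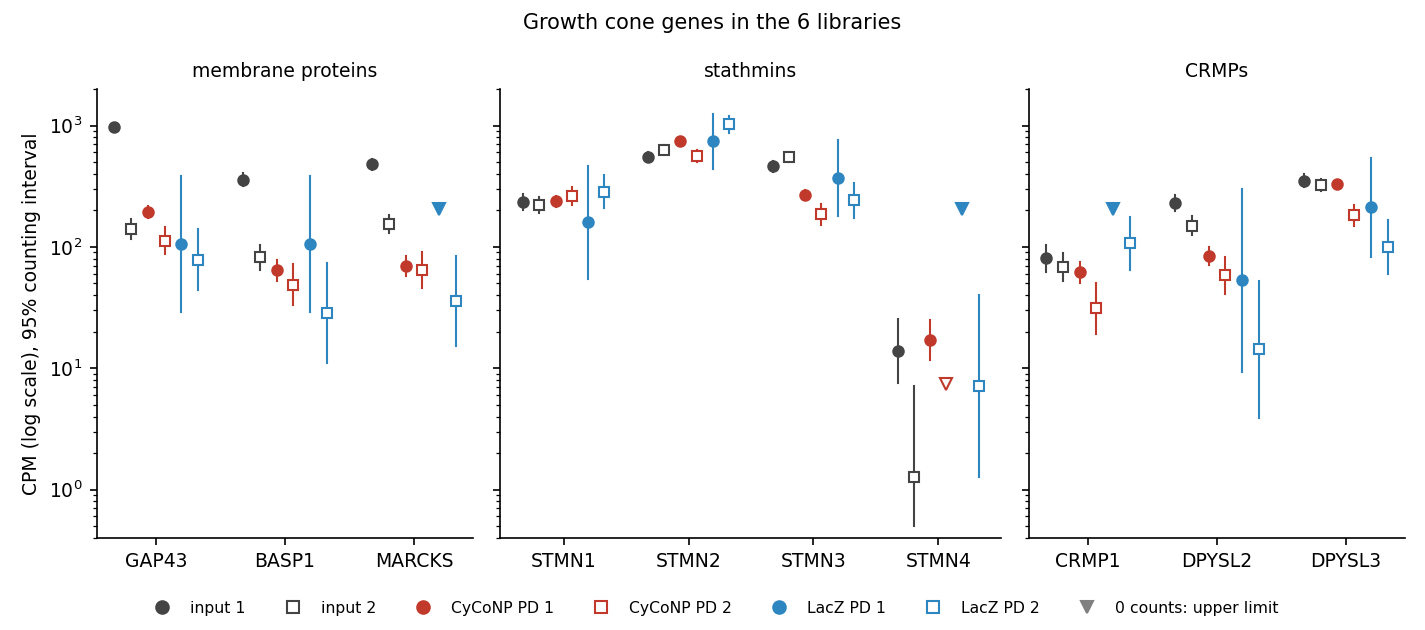
CPM (log axis) of the 10 genes in the 6 libraries, with 95% Wilson counting intervals. Filled circles are replicate 1, open squares replicate 2, and triangles mark upper limits at 0 counts. GAP43, BASP1 and MARCKS are highest in input 1, at 978, 357 and 481 CPM, while STMN2 lies between 552 and 1021 CPM in every library.

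Among the membrane proteins, GAP43 (ENSG00000172020, chr3:115623510-115721490, plus strand), the growth-associated protein that marks axonal growth cones, was at 978 and 140 CPM in the input, 193 and 113 CPM in CyCoNP PD, and 106 and 78.5 CPM in LacZ PD. Behind the last pair of values stood 2 and 11 counts. The high value was that of input 1 alone, and the CyCoNP PD range overlapped that of the input, while both LacZ PD libraries lay below it. The log2 fold change against input was -1.72 ± 0.78 (SE) in CyCoNP PD, with an edgeR adjusted p of 0.896, and -3.03 ± 0.91 in LacZ PD, with an edgeR adjusted p of 0.551, so neither passed the test. Both rested on input 1: without that library the log2 fold changes were 0.11 and -1.25, and without input 2 the LacZ PD value was -3.79 and passed, with an edgeR adjusted p of 0.0335. Within the number 1 libraries GAP43 was 5.06-fold lower in CyCoNP PD than in input (95% interval 4.41 to 5.82), but within the number 2 libraries it was 1.24-fold lower (0.898 to 1.74), an interval that includes no difference. In LacZ PD it was 9.23-fold lower within replicate 1 (2.54 to 76.3) and 1.79-fold lower within replicate 2 (0.960 to 3.68).

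BASP1 (ENSG00000176788, chr5:17065598-17276843, plus strand), a myristoylated relative of GAP43 in function, was at 357 and 82.1 CPM in the input, 64.1 and 48.6 CPM in CyCoNP PD, and 106 and 28.5 CPM in LacZ PD, the last from 2 and 4 counts. Both CyCoNP PD libraries were below both input libraries, and by CPM the LacZ PD range overlapped that of the input. The log2 fold change was -1.82 ± 0.72 in CyCoNP PD and -2.61 ± 0.90 in LacZ PD, with edgeR adjusted p of 0.804 and 0.607. BASP1 was 5.56-fold lower in CyCoNP PD within the number 1 libraries (4.38 to 7.10) and 1.69-fold lower within the number 2 libraries (1.05 to 2.8). The LacZ PD ratios were 3.36-fold lower (0.922 to 27.9) and 2.87-fold lower (1.07 to 10.9). Its log2 fold changes also rested on input 1, being -0.56 in CyCoNP PD and -1.40 in LacZ PD without it.

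MARCKS (ENSG00000277443, chr6:113857345-113863475, plus strand), an actin-binding substrate of protein kinase C, was at 481 and 154 CPM in the input, 70.1 and 64.1 CPM in CyCoNP PD, and 0 and 35.7 CPM in LacZ PD. The input had 345 and 122 counts, CyCoNP PD 106 and 33, and LacZ PD 0 and 5, so that CyCoNP PD and LacZ PD 2 lay below both input libraries. The 0 of LacZ PD 1 lay below input 1, but not detectably below input 2, whose 154 CPM is under the 159 CPM of 3 counts. MARCKS had the lowest log2 fold change of the 10 genes in both comparisons, -2.12 ± 0.72 in CyCoNP PD and -3.71 ± 0.92 in LacZ PD, with edgeR adjusted p of 0.565 and 0.480. With the replicate number as a block, both values passed the test, at -2.02 with an edgeR adjusted p of 0.0117 and -3.32 with an edgeR adjusted p of 0.00687. DESeq2 also called the LacZ PD value (-3.67, adjusted p = 0.0247) but not that of CyCoNP PD (-2.23, adjusted p = 0.195). Within the number 1 libraries MARCKS was 6.86-fold lower in CyCoNP PD (5.50 to 8.61), and within the number 2 libraries 2.40-fold lower (1.62 to 3.65). In LacZ PD it was at least 3.02-fold lower in replicate 1, taking 3 counts as the limit of 0, and 4.32-fold lower in replicate 2 (1.80 to 13.5). Without input 1 the CyCoNP PD log2 fold change was -1.22 and that of LacZ PD -2.84.

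The stathmins behaved differently from each other. STMN1 (ENSG00000117632, chr1:25884181-25906991, minus strand), the stathmin found in most dividing cells, was at 234 and 222 CPM in the input, 237 and 262 CPM in CyCoNP PD, and 159 and 285 CPM in LacZ PD. STMN2 (ENSG00000104435, chr8:79611117-79666158, plus strand), a palmitoylated stathmin of growth cone membranes, was at 552 and 634 CPM in the input, 751 and 565 CPM in CyCoNP PD, and 742 and 1021 CPM in LacZ PD. Both CyCoNP PD libraries were just above the input for STMN1 and overlapped it for STMN2, and by CPM the LacZ PD libraries lay on either side of the input for STMN1 and above it for STMN2. Log2 fold changes of STMN1 were 0.19 ± 0.62 in CyCoNP PD and -0.32 ± 0.66 in LacZ PD, and those of STMN2 were 0.21 ± 0.64 and 0.16 ± 0.65. None of these passed the test, and their edgeR adjusted p were 0.890 or more. Under other scalings or without 1 library the sign of the LacZ PD values of both genes and of the CyCoNP PD value of STMN2 turned. Within replicates 1 and 2, the ratio of STMN1 to input was 1.01 (0.840 to 1.22) and 1.18 (0.936 to 1.48) in CyCoNP PD, and 0.679 (0.139 to 2.02) and 1.28 (0.888 to 1.82) in LacZ PD.

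STMN2 was the only member with more than 100 counts in a LacZ PD library, at 143 counts in LacZ PD 2. There it was 1.61-fold higher than in input 2 (1.33 to 1.94), and in LacZ PD 1, with 14 counts, 1.35-fold higher than in input 1 with an interval that includes 1 (0.729 to 2.28). CyCoNP PD against input gave 1.36-fold in replicate 1 (1.21 to 1.53) and 0.892-fold in replicate 2 (0.769 to 1.03), so its replicates pointed in opposite directions.

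STMN3 (ENSG00000197457, chr20:63639705-63657682, minus strand), a neuronal stathmin, was at 461 and 552 CPM in the input, 267 and 186 CPM in CyCoNP PD, and 371 and 243 CPM in LacZ PD. Both pull-downs were below both input libraries without overlap. The log2 fold change was -1.09 ± 0.60 in CyCoNP PD and -1.30 ± 0.64 in LacZ PD, with edgeR adjusted p of 1.00 and 0.718, and neither passed. The direction of the CyCoNP PD value held in each replicate, as STMN3 was 1.73-fold lower in replicate 1 (1.49 to 2) and 2.96-fold lower in replicate 2 (2.37 to 3.73). In LacZ PD it was 1.24-fold lower in replicate 1 (0.597 to 3.12) and 2.27-fold lower in replicate 2 (1.60 to 3.33). STMN4 (ENSG00000015592, chr8:27235308-27258420, minus strand), the other neuronal stathmin, had 10 and 1 counts in the input, against 26 and 0 in CyCoNP PD, while LacZ PD held 0 and 1. Nearly all of its counts were in the number 1 libraries, and no difference between groups was detectable at this depth.

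Among the CRMPs, CRMP1 (ENSG00000072832, chr4:5748084-5893086, minus strand), named for its part in the response to collapsin, the first known semaphorin, was at 80.8 and 68.2 CPM in the input, 61.5 and 31.1 CPM in CyCoNP PD, and 0 and 107 CPM in LacZ PD. Both CyCoNP PD libraries lay below the input, and the LacZ PD libraries lay on either side of it. Log2 fold changes were -0.58 ± 0.74 in CyCoNP PD and -0.23 ± 0.84 in LacZ PD, with edgeR adjusted p of 1.00 and 0.943. CRMP1 was 1.31-fold lower in CyCoNP PD within replicate 1 (0.930 to 1.84) and 2.19-fold lower within replicate 2 (1.24 to 4.11), and 1.57-fold higher in LacZ PD within replicate 2 (0.823 to 2.82). The 0 of LacZ PD 1 is no low value, since at this depth 3 counts already correspond to 159 CPM.

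DPYSL2 (ENSG00000092964, chr8:26514031-26658178, plus strand), which encodes the CRMP best known for promoting axon formation, was at 228 and 149 CPM in the input, 84.0 and 58.3 CPM in CyCoNP PD, and 53.0 and 14.3 CPM in LacZ PD. The input had 164 and 118 counts, CyCoNP PD 127 and 30, and LacZ PD 1 and 2. All 4 pull-down libraries were below both input libraries, and those of LacZ PD were below those of CyCoNP PD. The log2 fold change was -1.31 ± 0.62 in CyCoNP PD, with an edgeR adjusted p of 0.938, and -3.48 ± 0.87 in LacZ PD, with an edgeR adjusted p of 0.480. With the replicate block the LacZ PD value passed, at -3.38 with an edgeR adjusted p of 0.0154 and at -3.30 with a DESeq2 adjusted p of 0.0347. Among the 10 genes it had the CyCoNP PD ratios most alike in the replicates, 2.72-fold lower in replicate 1 (2.14 to 3.46) and 2.56-fold lower in replicate 2 (1.70 to 3.96). In LacZ PD the ratio was 4.31-fold lower in replicate 1 (0.763 to 171) and 10.4-fold lower in replicate 2 (2.83 to 87.2).

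DPYSL3 (ENSG00000113657, chr5:147390808-147510068, minus strand), a CRMP of immature neurons, was at 351 and 323 CPM in the input, 328 and 183 CPM in CyCoNP PD, and 212 and 99.9 CPM in LacZ PD. CyCoNP PD overlapped the input, and both LacZ PD libraries, with 4 and 14 counts, were below it. The log2 fold change was -0.32 ± 0.60 in CyCoNP PD and -1.79 ± 0.69 in LacZ PD, with edgeR adjusted p of 1.00 and 0.631. In LacZ PD it was 3.24-fold lower than in input within replicate 2 (1.89 to 6), and 1.66-fold lower within replicate 1 (0.639 to 6.12). In CyCoNP PD it was 1.77-fold lower within replicate 2 (1.39 to 2.27) and 1.07-fold lower within replicate 1 (0.916 to 1.25).

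**Figure D3:**
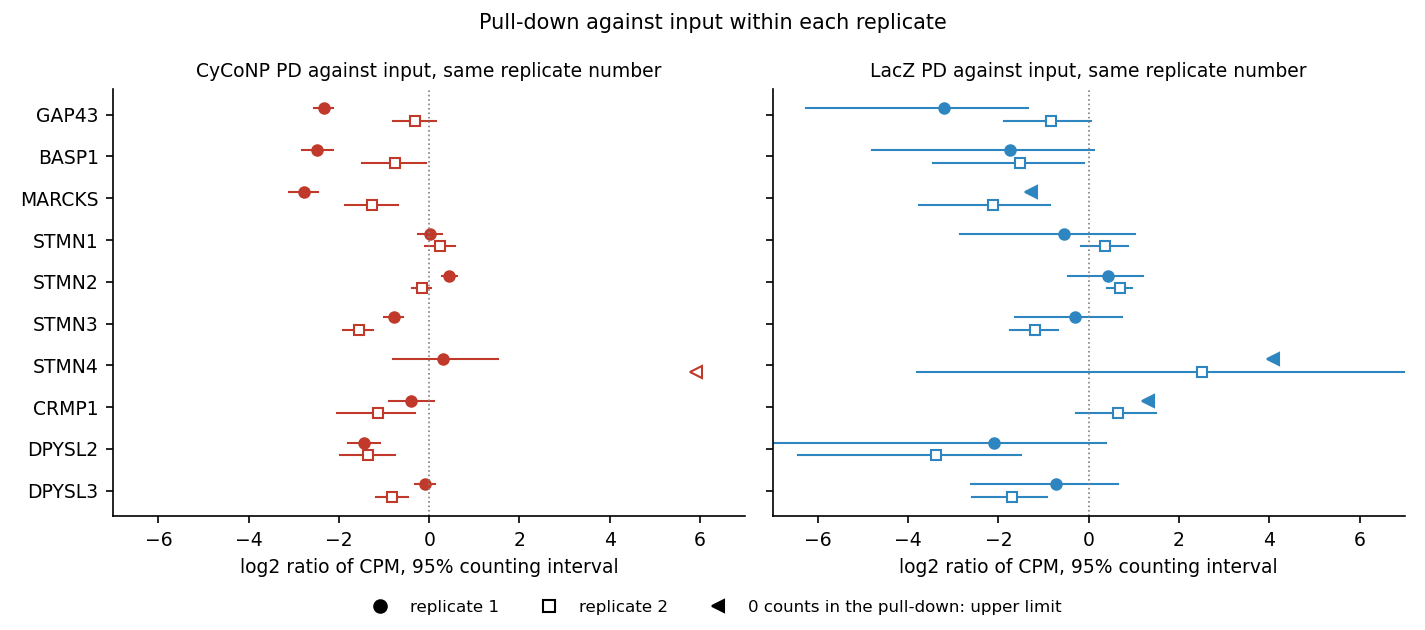
Log2 ratio of the CPM of each pull-down to the input of the same replicate number, with 95% exact binomial counting intervals (lines reaching the edge run past it). In CyCoNP PD the intervals of BASP1, MARCKS, STMN3 and DPYSL2 lie below 0 in both replicates. GAP43 is 5.06-fold lower in replicate 1 and 1.24-fold lower in replicate 2, where its interval includes 0.

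Against input, no member was called higher or lower in either pull-down in the edgeR fit without a block. In CyCoNP PD this compares with 15 genes called higher (0.119%) and 1 called lower (0.00796%) of all 12565 tested, and in LacZ PD with 0 called higher (0%) and 0 called lower (0%). Before adjustment, a p below 0.05 in edgeR was reached by 3 members in CyCoNP PD, among 387 genes that were higher and 291 that were lower, and by 5 members in LacZ PD, among 93 genes that were higher and 789 that were lower. With the replicate block, edgeR called 1 member lower in CyCoNP PD (MARCKS), where 0.732% of all genes were called lower, and 2 members lower in LacZ PD (MARCKS and DPYSL2), where 0.796% were. DESeq2 called 0 members lower in CyCoNP PD, where 0.111% of all genes were, and 1 in LacZ PD (MARCKS), where 0.422% were. It gave no adjusted p to DPYSL2, CRMP1 and STMN4 in LacZ PD, nor to STMN4 in CyCoNP PD. The DESeq2 shares count genes without an adjusted p as not called. DESeq2 with the block called 0 lower in CyCoNP PD, where 0.279% of all genes were, and 2 in LacZ PD (MARCKS and DPYSL2), where 0.565% were. No fit called a member higher.

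By CPM, 5 of the 10 genes (BASP1, MARCKS, STMN3, CRMP1 and DPYSL2) were lower in both CyCoNP PD libraries than in both input libraries, against 20.3% of all genes tested. In LacZ PD this held for 5 of the 10 (GAP43, MARCKS, STMN3, DPYSL2 and DPYSL3), against 33.7% of all genes tested, and BASP1 joined them after TMM normalization. A 0 counts as low here too, for MARCKS in LacZ PD 1 as for every other gene, although its limit of 159 CPM is above the level of input 2. The median log2 fold change of the 10 genes in CyCoNP PD was -0.84, beside -0.01 over all genes tested, with 7 of 10 below 0. In LacZ PD it was -1.54, beside -0.68 over all genes tested, with 9 of 10 below 0. The LacZ PD median of all genes depended on the scaling and was -0.34 with library size alone, where that of the members was -1.05. The comparisons of the pull-downs with input share the same 2 input libraries, so the low values of a gene in both are not separate observations, and a high value in input 1 lowers both.

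Set against each other, the pull-downs did not differ in a way that passed the test for any member. CyCoNP PD was higher than LacZ PD in both libraries by CPM for GAP43, MARCKS and DPYSL2, 3 of 10 genes against 29.3% of all genes tested, in which a 0 counts as low. For MARCKS the 0 of LacZ PD 1 does not show this, since its CPM in CyCoNP PD was under the 159 CPM that 3 counts stand for. In this comparison edgeR called 0 genes higher (0%) and 0 lower (0%). Before adjustment, 2 members reached a p below 0.05, among 595 genes that were higher and 58 that were lower. Over the members the log2 fold change had a median of 0.91, beside 0.64 over all genes tested, 0.47 beside 0.22 with library size alone, and 0.56 beside 0.61 with the replicate block in edgeR, where the members were below all genes. DPYSL2 had the largest value among the members, 2.18 ± 0.89, with an edgeR adjusted p of 0.871, from 127 and 30 counts in CyCoNP PD and 1 and 2 counts in LacZ PD.

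Within the number 1 libraries, 4 of 10 members were over 2-fold lower in CyCoNP PD than in input (GAP43, BASP1, MARCKS and DPYSL2), beside 19.3% of the 8386 genes with at least 20 counts in that pair. Within the number 2 libraries this held for 4 of 9 members (MARCKS, STMN3, CRMP1 and DPYSL2), beside 13% of 5875 genes. In LacZ PD, 5 of 9 members were over 2-fold lower in replicate 1 (GAP43, BASP1, MARCKS, CRMP1 and DPYSL2), beside 15.1% of 4691 genes, and 5 of 9 in replicate 2 (BASP1, MARCKS, STMN3, DPYSL2 and DPYSL3), beside 22% of 4625 genes. The count of replicate 1 takes in CRMP1 and MARCKS at 0 counts, and for CRMP1 the upper limit of the ratio was 2.50, so its place there is not supported. For BASP1 and DPYSL2 the intervals of that LacZ PD ratio include no difference. MARCKS and DPYSL2 were thus over 2-fold lower in CyCoNP PD in both replicates, GAP43 and BASP1 in the number 1 libraries, and STMN3 and CRMP1 in the number 2 libraries.

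The replicates of the input differed most in the group of membrane proteins. GAP43 was 6.98-fold higher in input 1 than in input 2 (5.70 to 8.60), BASP1 4.34-fold higher (3.30 to 5.80) and MARCKS 3.12-fold higher (2.53 to 3.87). The stathmins and CRMPs were at 0.836-fold (STMN3) to 1.53-fold (DPYSL2), STMN4 with its 11 input counts aside. Of 2137 genes with at least 100 input counts, 15.9% were over 2-fold higher in input 1 and 11.5% over 2-fold higher in input 2. A larger difference than that of GAP43, in either direction, was found in 3.98% of these genes, than that of BASP1 in 6.32% and than that of MARCKS in 10.4%.

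The same contrast was smaller in CyCoNP PD. There the ratio of replicate 1 to replicate 2 was 1.71 for GAP43 (1.29 to 2.31), 1.32 for BASP1 (0.844 to 2.14) and 1.09 for MARCKS (0.734 to 1.67). In LacZ PD the counts of these 3 genes, 0 to 11 in a library, were too few for this comparison. MYOG, by comparison, was at 928, 849 and 1166 CPM in the number 1 libraries of input, CyCoNP PD and LacZ PD, whereas GAP43 was at 978, 193 and 106 CPM in them. Other muscle transcripts were not at a like level in these 3 libraries: TNNT2, chosen after its values were seen, was at 206, 464 and 424 CPM, and the summed list was lowest in input 1. In CyCoNP PD against input the median log2 fold change of the 22 muscle markers tested was 1.53, with 21 above 0. edgeR called 0 of them without the block and 3 higher with it, MYMK, CHRNA1 and MYL1, where 1.53% of all genes tested were called higher.

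**Figure D4:**
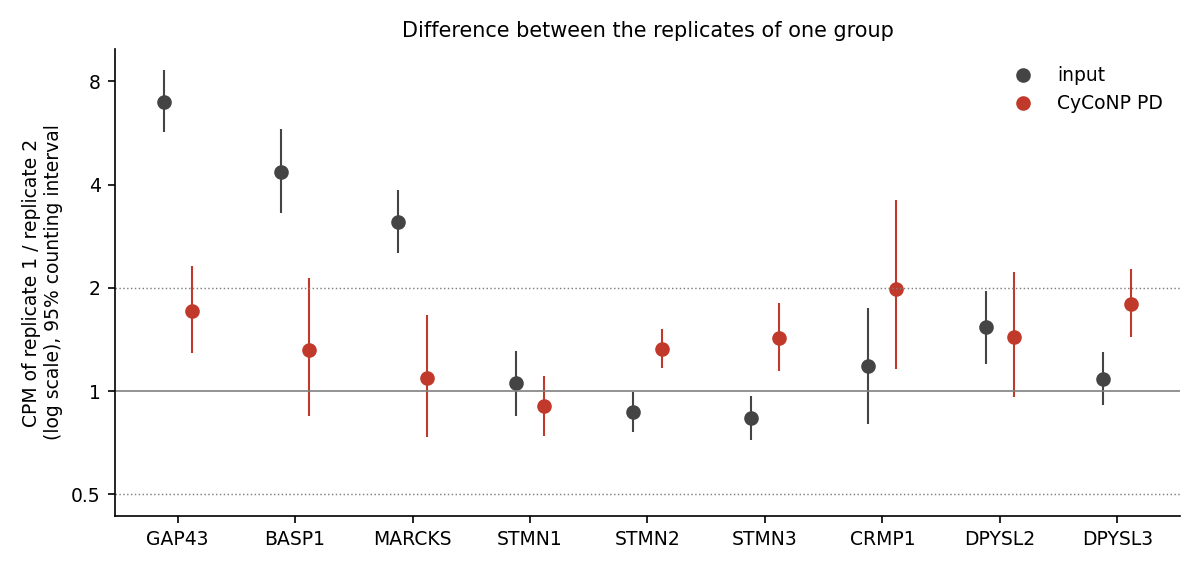
CPM of replicate 1 divided by CPM of replicate 2 (log axis) in input and CyCoNP PD, with 95% exact binomial counting intervals and dotted lines at 2-fold. STMN4, with 0 counts in CyCoNP PD 2, is left out. GAP43, BASP1 and MARCKS stand at 6.98, 4.34 and 3.12 in the input, and at 1.71, 1.32 and 1.09 in CyCoNP PD.

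Transcript length moved with the recovery of genes in general. Over protein-coding genes of the nucleus with at least 100 input counts, the median log2 fold change in CyCoNP PD was 0.26 for 396 transcripts of 1000 to 2000 bases and -0.44 for 447 transcripts over 5000 bases, and in LacZ PD it was 0.04 and -1.22. For 341 transcripts of up to 1000 bases it was 0.043 in CyCoNP PD and -0.087 in LacZ PD. The medians therefore did not fall with length throughout. Some members of like length had different fold changes. GAP43 (1498 bases) and STMN1 (1443 bases) are of like length, and STMN1 was near the median of its length class in CyCoNP PD, with 45.5% of the class below it, whereas 0.758% of the class lay below GAP43. BASP1 (1807 bases) and STMN2 (1903 bases) gave the same contrast, with 0.253% and 47.0% of the class below them. Of the longer messages, MARCKS (4296 bases) had 2.01% of its class below it, DPYSL2 (4798 bases) 8.77%, CRMP1 (3174 bases) 38.8% and DPYSL3 (5492 bases) 59.1%. These shares come from the fit with both input libraries. Without input 1 the CyCoNP PD log2 fold changes of GAP43, BASP1 and MARCKS were 0.11, -0.56 and -1.22. The part of length in any of these values was not tested.

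The genes also differ in structure. MARCKS and BASP1 have 2 exons and GAP43 has 3, whereas STMN1, STMN2 and STMN3 have 5 and each of the CRMPs 14. Of the genes that overlap members, PNMA2, on the opposite strand of DPYSL2, had 27 counts over the 6 libraries. The processed pseudogenes named after STMN1 and BASP1 had 0. These are counts assigned to those genes, and whether any of their reads were counted for a member was not tested.

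The closest relatives of the members were measured as well. MARCKSL1, which shares the calmodulin-binding effector domain of MARCKS, was at 118 and 116 CPM in the input, 138 and 142 CPM in CyCoNP PD, and 53.0 and 57.1 CPM in LacZ PD, the last from 1 and 8 counts. It was thus nearly equal in both input libraries, where MARCKS differed 3.12-fold, and above them in CyCoNP PD, where MARCKS was below. The log2 fold change of MARCKSL1 in CyCoNP PD was 0.32 ± 0.59, with an edgeR adjusted p of 1.00, and in LacZ PD -1.42 ± 0.72, with an edgeR adjusted p of 0.728, so neither passed. DPYSL4 and DPYSL5, the remaining CRMPs, were scarce, at 5.57 and 1.26 CPM and at 23.7 and 5.05 CPM in the input, and none of their comparisons passed the test.

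Genes that act with the members were counted over lists. None of the tested genes of 4 lists was called in any comparison by edgeR, with or without the block, or by DESeq2 in either form: the semaphorin ligands and receptors that signal to CRMPs (8 tested), the actin regulators (14 tested), the RNA-binding proteins of neurite messages such as ELAVL4 (5 tested) and the guidance receptors and ligands (7 tested). The same held for the 3 calmodulin genes, whose proteins bind GAP43 and MARCKS. They summed to 3930 and 4163 CPM in the input, 5371 and 6318 CPM in CyCoNP PD, and 7631 and 7901 CPM in LacZ PD. The absence of calls says little for LacZ PD, because edgeR without the block called 0 of all genes in either comparison with it. In LacZ PD against input, DESeq2 without the block also gave no adjusted p to any semaphorin or guidance gene. It gave one to only some of the actin and RNA-binding genes there, and a gene without one could not be called. Of the 13 tested kinases that phosphorylate members, edgeR without the block called 0. Against input the median log2 fold change in CyCoNP PD was 0.38 for the semaphorin list, -0.33 for the actin regulators, -0.58 for the RNA-binding proteins, -0.57 for the guidance genes, 0.33 for the calmodulins and -0.22 for the kinases, beside -0.01 over all genes.

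The exception among the kinases was PRKACA, a catalytic subunit of protein kinase A, which phosphorylates stathmins. It was at 181 and 117 CPM in the input, 314 and 336 CPM in CyCoNP PD, and 53.0 and 28.5 CPM in LacZ PD, the last from 1 and 4 counts. CyCoNP PD was above, and LacZ PD below, both input libraries. Between the pull-downs its log2 fold change was 3.69 ± 0.78, with an edgeR adjusted p of 0.146. It was called higher in CyCoNP PD than in LacZ PD by edgeR with the block (adjusted p = 0.00109), where 0.724% of all genes were, by DESeq2 (adjusted p = 0.00637), where 0.287% were, and by DESeq2 with the block, where 0.414% were. No member was called in that direction by any of these fits. MYCN, of the neuroblastoma markers, was at 1532 and 1799 CPM in the input and 1166 and 321 CPM in LacZ PD, and was called lower there by DESeq2 (log2 fold change -1.91, adjusted p = 0.0265) and by DESeq2 with the block but not by edgeR (-1.94 ± 0.69, adjusted p = 0.613).

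Finally, the genes whose pattern over the 6 libraries was nearest to the mean pattern of the 10 members were sought among 4307 other genes with at least 100 counts, by the Euclidean distance of centred log2 CPM. The 5 nearest were SYNPO2 (distance 0.37), SYT1 (0.44), RPL10AP6 (0.51), RSF1 (0.54) and SNRNP27 (0.56). Counts of SYT1, the calcium sensor of synaptic vesicles, were 159 and 87 in the input, against 152 and 38 in CyCoNP PD, while LacZ PD held 1 and 13. The members themselves were at distances of 1.20 (DPYSL3) to 3.34 (MARCKS) from their mean, farther than these 5 genes, so the mean pattern was that of no member in particular. RPL10AP6 is a pseudogene of a ribosomal protein gene, and how reads were divided between it and its parent gene is uncertain.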

How the data were processed

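Reads were processed by the authors: basecalled with Guppy, which set the quality limit, freed of short reads with Nanofilt, aligned to GRCh38 with Minimap2 2.24 and assigned to Ensembl 99 genes with Bambu, without new isoforms. The authors deposited whole-number counts per gene without normalization, and the same counts as CPM, which differed from counts divided by library totals by at most 5.1e-11. Input and pull-down RNA went into reverse transcription in different amounts and pooled different numbers of PCR reactions, and whether this moved the values was not tested.

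The test of genes with at least 10 counts in total used R 4.3.3 and edgeR 4.0.16 (TMM, quasi-likelihood F test, all 6 libraries in one fit, Benjamini-Hochberg adjustment over 12565 genes). Called genes had an adjusted p under 0.05 and a log2 fold change beyond 1 in size, and SE was derived from the F statistic. The fit was tested on simulated data. Replicates are described as biological duplicates, their counts differed by more than sampling noise (chi-square per degree of freedom 4.11 to 18.4), and p-values measure the spread between these libraries. The deviations of same-numbered libraries from their groups' means had correlations of 0.257 to 0.449 over genes, all above 0.1. The replicate numbers were therefore treated as pairs in the ratios within a replicate and in the fits with the block. The main fit ignores this pairing. With 2 libraries a group, only 3 of these 6 correlations are distinct. The block was left out of the main fit because the study's methods name none, and is given where it changed a call. Intervals (95%, Wilson for CPM, exact binomial for ratios) cover counting error only, because reads copied by PCR and not tagged with molecular identifiers can repeat 1 molecule.

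Members and lists were chosen with earlier results of these data known, and 2 marker genes of the lists are not reported here. The genes named were the members, their 3 further family members, up to 2 called genes per list and comparison, the 5 nearest in pattern and CyCoNP. MYOG, MYF6, TNNT2, MYMK, CHRNA1, MYL1, SOX10 and PNMA2 were named after their values were seen. GENCODE v44 gave symbols for 60357 of 60676 genes, and positions and transcript lengths (Ensembl canonical). The alternatives were DESeq2 1.42.0, its size factors, library size alone, no count filter, filterByExpr, only the 2 groups compared, the replicate block, each library left out, and each replicate alone, the last added after the data were seen. Intervals, figures and sequence matches were made with Python 3.11.15.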

Additional observations from a re-analysis of the deposited data

How the results depend on the processing

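Of the counts of called members, those called lower changed. In CyCoNP PD against input, 0 became 1 with the replicate block in edgeR. In LacZ PD against input, 0 became 1 with DESeq2 and with no count filter, and 2 with the replicate block in edgeR or in DESeq2; leaving out 1 library gave 0 to 2, the 2 without input replicate 2. The replicate block changed no other call of a member. The cause of these changes was not tested. No member was called in a comparison in which its sign turned. In CyCoNP PD against input, STMN4 was -0.20 with the replicate block in DESeq2. In LacZ PD against input, STMN1 and CRMP1 were 0.063 and 0.064 with library size alone, and STMN4 was 0.60 and 0.86 with the replicate block in edgeR and DESeq2. In CyCoNP PD against LacZ PD, STMN2 was -0.11 with size factors after DESeq2's method, -0.13 with DESeq2, -0.44 with library size alone, -0.042 with filterByExpr and -0.044 with the replicate block in DESeq2, STMN3 was -0.37 with library size alone, and STMN4 was -0.32 and -1.06 with the replicate block in edgeR and DESeq2. Leaving out 1 library turned more signs. The ranges against input in CyCoNP PD were -2.50 to 0.11 for GAP43, -0.026 to 0.43 for STMN2, -4.72 to 2.73 for STMN4 and -0.83 to 0.060 for DPYSL3. In LacZ PD they were -1.68 to 0.14 for STMN1, -0.84 to 0.59 for STMN2, -5.36 to 1.69 for STMN4 and -8.68 to 0.34 for CRMP1. Between the pull-downs they were -0.38 to 1.07 for STMN2, -0.085 to 0.54 for STMN3, -4.22 to 5.87 for STMN4 and -0.98 to 8.11 for CRMP1. Values beyond 4 come from arms at 0 counts, depend on the prior count and are no measure of size. Where an arm kept 1 library, that library was assumed to vary like the other groups. Depth limited every value of LacZ PD, in which 8 members had 5 or fewer counts in at least 1 library.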
